A study of Mus musculus with 4 samples.

Results

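Keratin-associated protein genes (Krtap) were taken as every gene of the deposited count table whose symbol is Krtap followed by a digit, which gave 57 genes of 45706. They fall into 27 numbered subfamilies. By subfamily number, 16 members of subfamilies 6, 7, 8 and 19 to 22 form the high glycine-tyrosine class and 41 members of the other subfamilies form the sulfur-rich class. The 57 members lie on GRCm38 chromosomes 1, 7, 10, 11 and 16, with 2, 5, 2, 23 and 25 genes, and 1 of them, Krtap19-9a, is annotated as a processed pseudogene.

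Keratin-associated proteins are the matrix in which the keratin filaments of hair and nail are embedded, and they are made late, when the cells of the shaft or plate harden. Sulfur-rich members carry many cysteines, which form disulfide bonds with hair keratins and with each other, while high glycine-tyrosine members are short proteins dominated by those amino acids. In human hair follicles most subfamilies were mapped to the cortex, the bulk of the shaft, whereas subfamilies 5, 10, 12, 17 and 24 are known from the cuticle, the layer of flat cells around it.

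RNA-seq was made from regenerating mouse digit tips 14 days after amputation, with 1 library per genotype. The knockouts target the genes of the zinc-finger transcription factors Sp6, Sp8 or both. The groups were Sp6 conditional knockout (Sp6 cKO), Sp8 cKO, Sp6+Sp8 cKO and Wildtype. Deletion was induced by tamoxifen at 75 mg/kg on each of 5 days, with 5 days of rest before amputation. The protocols cover amputations through the distal and through the middle phalanx without saying which applies here, and tissue proximal to the last joint was trimmed off before the whole tip was ground. The labels do not state the Cre driver, the strain, sex or age, how many animals made up a library, or whether tamoxifen was also given to Wildtype mice. The labels give batch 1 for all 3 cKO libraries and batch 3 for Wildtype. Batch and genotype therefore cannot be told apart wherever Wildtype is one side. The cKO libraries can be compared with each other within batch 1. The tissue is bulk, so fewer cells of a type and less RNA per cell cannot be told apart.

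Estimated counts summed to 13054843 in Sp6 cKO, 12588511 in Sp8 cKO, 15146015 in Sp6+Sp8 cKO and 21834883 in Wildtype. On the scale used below, counts scaled for library depth (CPM), 3 counts corresponded to 0.233, 0.238, 0.195 and 0.138 CPM in these libraries. Sp6 stood at 29.2 CPM in Sp6 cKO, 95.6 CPM in Sp8 cKO, 57.8 CPM in Sp6+Sp8 cKO and 97.7 CPM in Wildtype. Sp8 stood at 66.1, 16.8, 13.4 and 63.9 CPM in the same order. The library labelled Sp6+Sp8 cKO was thus far below Wildtype in Sp8 (log2 ratio -2.24) while its Sp6 value was not past the size rule used below (log2 ratio -0.76) and was above that of Sp6 cKO. The name Sp6+Sp8 cKO is used here as the label of that library. Counts cover whole genes and not the deleted exons.

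The coding sequences show how the members differ. In the GENCODE M21 annotation of GRCm38, 56 members have a coding sequence, each in 1 exon. High glycine-tyrosine members have 57 to 155 codons, of which 29.9% to 69.2% encode glycine or tyrosine (median 63.3%) and 0% to 16.7% cysteine (median 8.05%). Sulfur-rich members have 86 to 502 codons, with 4% to 42.9% cysteine (median 29.8%) and a median of 7.45% glycine or tyrosine. The classes overlap at their edges. Krtap16-3 is numbered among the sulfur-rich members, but 59.3% of its codons encode glycine or tyrosine and its coding sequence is 90.4% identical to that of Krtap19-1. Krtap7-1 is numbered among the high glycine-tyrosine members with 29.9% such codons. The first bases of 3 members named in the results below are given 5′ to 3′ on the coding strand, from the start codon (up to 180 bases), with glycine and tyrosine codons in capitals.
Krtap20-2, gene at chr16:89205861-89206394, plus strand: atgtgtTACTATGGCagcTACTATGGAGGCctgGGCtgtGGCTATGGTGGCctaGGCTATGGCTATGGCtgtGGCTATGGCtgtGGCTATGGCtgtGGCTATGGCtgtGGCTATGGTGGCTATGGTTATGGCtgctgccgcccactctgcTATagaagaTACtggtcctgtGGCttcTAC
Krtap6-3, gene at chr16:89084015-89084534, plus strand: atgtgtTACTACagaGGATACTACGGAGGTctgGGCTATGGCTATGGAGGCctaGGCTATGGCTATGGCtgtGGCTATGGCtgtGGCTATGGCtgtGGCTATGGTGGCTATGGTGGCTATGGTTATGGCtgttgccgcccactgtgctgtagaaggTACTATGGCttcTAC
Krtap16-3, gene at chr16:88962273-88962873, minus strand: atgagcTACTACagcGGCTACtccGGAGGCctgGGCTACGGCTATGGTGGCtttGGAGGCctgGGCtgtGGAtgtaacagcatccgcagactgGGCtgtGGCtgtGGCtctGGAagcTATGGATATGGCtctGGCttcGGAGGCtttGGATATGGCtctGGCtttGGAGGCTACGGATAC
In these stretches 38 of 60 codons of Krtap20-2, 39 of 57 of Krtap6-3 and 36 of 60 of Krtap16-3 are in capitals. Krtap20-2 and Krtap6-3 are 87.2% identical over their coding sequences.

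Sulfur-rich members differ among themselves in cysteine and glycine, which the same stretch of 3 members shows, here with cysteine codons in capitals.
Krtap5-4, gene at chr7:142303549-142304594, plus strand: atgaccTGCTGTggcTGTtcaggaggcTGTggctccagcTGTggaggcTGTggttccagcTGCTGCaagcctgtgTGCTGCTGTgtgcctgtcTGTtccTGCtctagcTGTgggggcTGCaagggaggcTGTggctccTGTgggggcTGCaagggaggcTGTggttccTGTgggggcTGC
Krtap28-13, gene at chr1:83060930-83061921, plus strand: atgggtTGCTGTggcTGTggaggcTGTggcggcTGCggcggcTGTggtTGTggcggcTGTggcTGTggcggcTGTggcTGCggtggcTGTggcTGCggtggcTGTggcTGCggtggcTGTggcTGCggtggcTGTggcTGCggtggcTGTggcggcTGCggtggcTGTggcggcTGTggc
Krtap1-5, gene at chr11:99579976-99581016, minus strand: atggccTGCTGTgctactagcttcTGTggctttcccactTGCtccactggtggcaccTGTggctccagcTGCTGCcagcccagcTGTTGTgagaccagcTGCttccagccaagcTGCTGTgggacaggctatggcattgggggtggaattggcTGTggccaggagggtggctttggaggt
Cysteine codons number 21 of 60 in the stretch of Krtap5-4, 23 of 60 in Krtap28-13 and 13 of 60 in Krtap1-5. Over its whole coding sequence Krtap28-13 has 42.8% cysteine and 42.0% glycine codons and no tyrosine codon. The 5 Krtap5 members have 34.6% to 41.5% cysteine codons. The plot of codon composition sets every member in this plane.

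**Figure D1:**
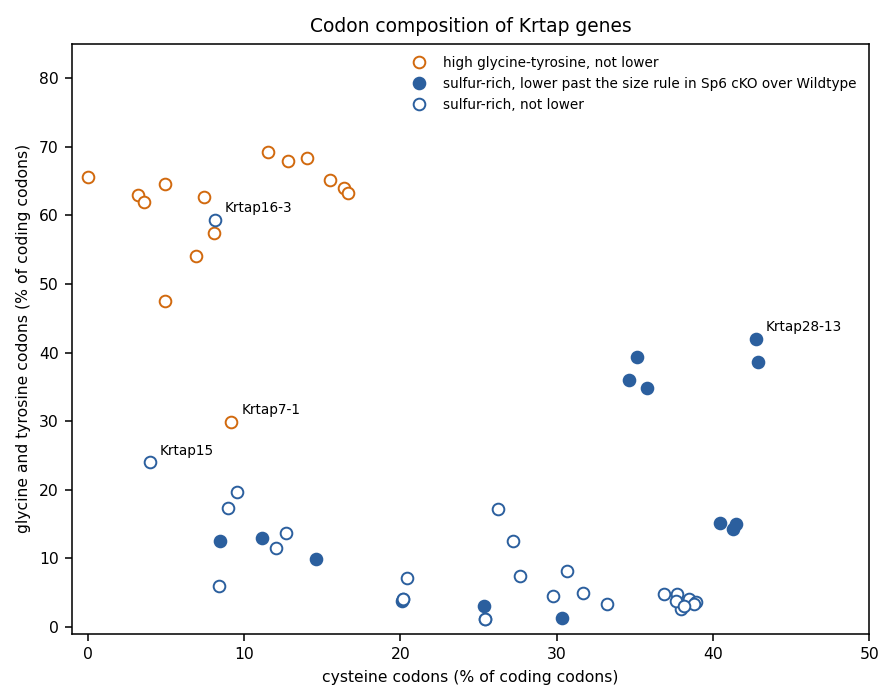
Each circle is 1 of the 56 members with a coding sequence, placed by the percentage of its codons that encode cysteine (x axis) and glycine or tyrosine (y axis). Filled circles are the 15 members lower in Sp6 cKO than in Wildtype, all numbered as sulfur-rich and spread from 8.47% to 42.9% cysteine, while Krtap16-3 lies among the high glycine-tyrosine members.

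The start sites share a feature. RefSeq promoter windows (GRCm38.p6, 250 bases before to 50 after the start) were found for 51 members. The letters TATAAA, searched on both strands, occurred in 42 of these 51 windows (82.4%), against 13.6% of all 32851 windows. On the strand of the gene and 40 to 15 bases before its start, the letters occurred in 31 of 51 (60.8%) against 1.99% of all windows. The letters GGGCGG, on either strand, occurred in 0 of 51 member windows and in 35.7% of all windows. Among the members that Sp6 cKO had at a lower level than Wildtype, 12 of the 13 with a window held TATAAA, and of the high glycine-tyrosine members 10 of 14. The letters were thus common in both sets. Sulfur-rich members that were not lower were not counted apart. A match describes the sequence and is neither a bound site nor a cause. The 60 bases before the start of 7 members that moved in different ways are given 5′ to 3′ on the strand of the gene, with the TATAAA nearest the start in capitals. All 7 hold the letters 40 to 15 bases before the start, as only 31 of 51 members do.
Krtap5-2, chr7:142176006-142176065, minus strand: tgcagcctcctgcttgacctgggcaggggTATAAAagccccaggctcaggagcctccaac
Krtap28-13, chr1:83060870-83060929, plus strand: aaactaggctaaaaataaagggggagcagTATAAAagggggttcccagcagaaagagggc
Krtap17-1, chr11:99993995-99994054, minus strand: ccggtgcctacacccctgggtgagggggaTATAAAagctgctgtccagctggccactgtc
Krtap24-1, chr16:88612280-88612339, minus strand: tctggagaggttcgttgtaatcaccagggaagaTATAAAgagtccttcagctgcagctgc
Krtap20-2, chr16:89205801-89205860, plus strand: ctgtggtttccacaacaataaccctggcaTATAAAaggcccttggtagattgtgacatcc
Krtap1-5, chr11:99581017-99581076, minus strand: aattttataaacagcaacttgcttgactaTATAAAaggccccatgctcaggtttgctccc
Krtap3-2, chr11:99556854-99556913, minus strand: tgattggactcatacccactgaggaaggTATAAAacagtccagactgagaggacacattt
Krtap5-2, Krtap28-13, Krtap17-1 and Krtap24-1 were lower in Sp6 cKO, Krtap20-2 was higher in Sp6 cKO and Sp8 cKO, Krtap1-5 was lower in Sp6+Sp8 cKO alone, and Krtap3-2 is among the most abundant members.

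Of the 57 members, 55 reached 1 CPM in at least 1 library. Krtap19-4 had 0.16 to 0.32 CPM, and Krtap19-9a was at 0 in 3 libraries, which allows up to the levels of 3 counts given above, and at 0.19 CPM in Sp6+Sp8 cKO. Levels of the 55, as mean CPM per kilobase of exon, ran from 1.97 to 3769 with a median of 150.5. The highest was Krtap3-1, a cortex protein in human hair, at 4799 CPM per kilobase in Sp6 cKO, 4180 in Sp8 cKO, 2276 in Sp6+Sp8 cKO and 3819 in Wildtype. Krtap7-1 followed at 2510, 3187, 1304 and 1940 CPM per kilobase in that order, then Krtap3-2 at 1681, 1429, 796 and 1255. These 3 genes held 36.7% of all Krtap counts in Sp6 cKO (95% Wilson interval 36.5 to 36.9), 32.9% in Sp8 cKO (32.7 to 33.1), 33.8% for Sp6+Sp8 cKO (33.5 to 34.1) and 36.6% in Wildtype (36.4 to 36.8).

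Summed over the family, Krtap genes reached 16861 CPM in Sp6 cKO, 18181 CPM in Sp8 cKO, 8891 CPM in Sp6+Sp8 cKO and 13126 CPM in Wildtype. The Sp6+Sp8 cKO library was the lowest of the 4 and Sp6 cKO and Sp8 cKO were above Wildtype. The ratio of sums to Wildtype was 1.28 (95% interval 1.28 to 1.29) in Sp6 cKO, 1.39 (1.38 to 1.39) in Sp8 cKO and 0.677 (0.673 to 0.682) in Sp6+Sp8 cKO. These exact intervals, given the sum of both counts, cover counting error only and say nothing of the spread between animals, since each group has 1 library. No difference was tested, each comparison describes 2 libraries, and reads multiplied by PCR are not independent molecules.

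Both classes followed this order when all their members were summed. High glycine-tyrosine members summed to 3980 CPM in Sp6 cKO, 4623 CPM in Sp8 cKO, 1702 CPM in Sp6+Sp8 cKO and 2833 CPM in Wildtype. Sulfur-rich members summed to 12881, 13559, 7188 and 10293 CPM in that order. Without the 31 members whose counts were not whole in at least 1 library, the log2 ratio of Sp6 cKO to Wildtype was -0.39 for the sulfur-rich sum in place of 0.32, a turned direction, and 0.41 for the high glycine-tyrosine sum in place of 0.49. With all members summed, the high glycine-tyrosine class lay further from Wildtype in each cKO library. This holds for sums, since median log2 ratios of members in Sp6+Sp8 cKO were -0.71 for high glycine-tyrosine and -0.80 for sulfur-rich. The difference between the class log2 ratios does not depend on library scaling. The high glycine-tyrosine class exceeded the sulfur-rich class in log2 ratio to Wildtype by 0.17 (95% interval 0.15 to 0.19) in Sp6 cKO and 0.31 (0.29 to 0.33) in Sp8 cKO. It was below the sulfur-rich class in Sp6+Sp8 cKO, with a difference of -0.22 (-0.24 to -0.19). Its share of Krtap counts was 23.6% (95% Wilson interval 23.4 to 23.8) in Sp6 cKO, 25.4% (25.2 to 25.6) in Sp8 cKO, 19.15% (18.9 to 19.4) for Sp6+Sp8 cKO and 21.6% (21.4 to 21.7) in Wildtype.

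Cortex keratins, the filament partners of these proteins, had their lowest sum in the same library as the family. The 8 listed genes summed to 5566 CPM in Sp6 cKO, 6117 CPM in Sp8 cKO, 2976 CPM in Sp6+Sp8 cKO and 5268 CPM in Wildtype. Past the size rule defined below, 0 of the 8 were lower for Sp6 cKO, 0 for Sp8 cKO and 2 for Sp6+Sp8 cKO against Wildtype, and none was higher. Of all measured genes 2.16%, 1.55% and 2.95% were lower past it in the same order, so 0 of 8 says little. Krt36 did not follow the sum, with 352 CPM in Sp6+Sp8 cKO, 278 CPM in Sp6 cKO, 275 CPM in Sp8 cKO and 270 CPM in Wildtype. There were 3.03 Krtap counts per cortex keratin count in Sp6 cKO, 2.97 for Sp8 cKO and 2.99 for the library labelled Sp6+Sp8 cKO, against 2.49 in Wildtype. The 3 batch 1 libraries thus lay close together in this ratio and above the batch 3 library.

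**Figure D2:**
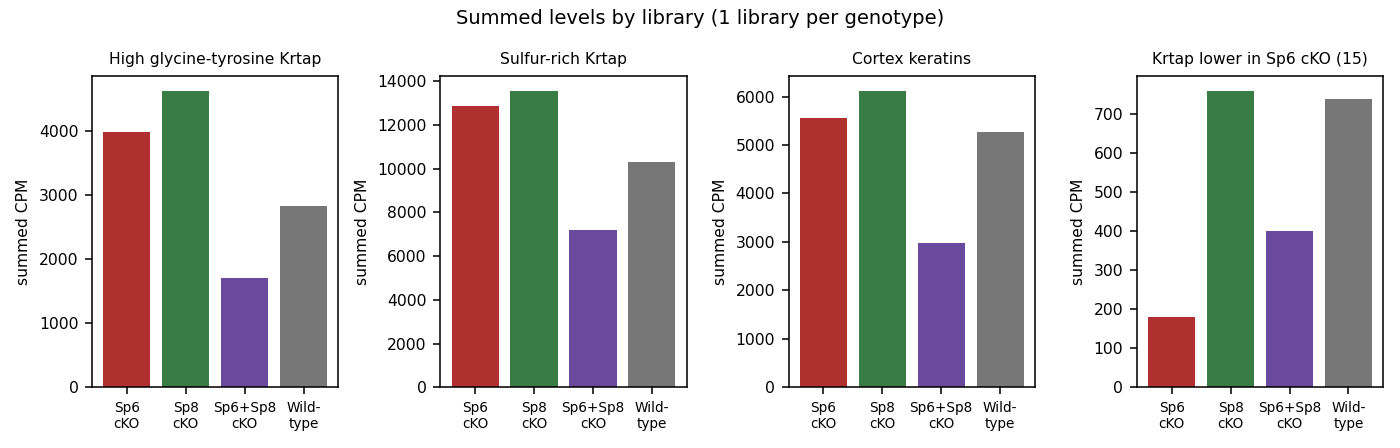
Bars give summed CPM in each of the 4 libraries (1 per genotype, so no error bar) for the high glycine-tyrosine class, the sulfur-rich class, 8 cortex keratins and the 15 Krtap members lower in Sp6 cKO than in Wildtype. The first 3 panels are lowest in Sp6+Sp8 cKO, and the last, whose members were chosen on the Sp6 cKO and Wildtype libraries, stands at 180, 760, 400 and 740 CPM.

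Members were counted as lower or higher past a size rule, which asked for a log2 ratio of at least 1 in size, 1 CPM in either library, and an exact 95% interval of the ratio without 1. In Sp6 cKO against Wildtype, 15 of 54 measured members were lower (27.8%), where 2.16% of all 16884 measured genes were. Only 1 member, Krtap20-2, was higher (1.85%), a share no larger than the 2.24% of all genes. All 15 lower members are numbered as sulfur-rich, of which 41 were measured, and 0 of 13 measured high glycine-tyrosine members were lower. The median log2 ratio was 0.20 over the members (0.56 for high glycine-tyrosine, -0.15 for sulfur-rich) and -0.01 over all genes. The lower members stood at modest levels, with a mean of 3.43 to 97.6 CPM per kilobase (median 19.2) against 1.97 to 3769 (median 282) for the other 40. These means include the Sp6 cKO library, in which the 15 were chosen for being low, which pulls their level down.

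All 5 Krtap5 genes, which encode ultrahigh-sulfur cuticle proteins in human hair, were among the lower members. They summed to 22.5 CPM in Sp6 cKO and 122 CPM in Wildtype, a ratio of 0.185 (95% interval 0.163 to 0.208), and stood at 118 CPM in Sp8 cKO and 48.2 CPM in Sp6+Sp8 cKO. The highest of them per kilobase, Krtap5-2, had 9.30 CPM in Sp6 cKO, 46.5 CPM in Sp8 cKO, 19.4 CPM in Sp6+Sp8 cKO and 43.1 CPM in Wildtype. Sp6 cKO was the lowest, Sp6+Sp8 cKO was also low, and Sp8 cKO lay near Wildtype. The 5 log2 ratios of Sp6 cKO to Wildtype ran from -2.91 (Krtap5-1) and -2.89 (Krtap5-4) to -2.20 (Krtap5-2).

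Both Krtap28 genes on chromosome 1, whose coding sequences are made largely of cysteine and glycine codons, were lower as well. Krtap28-10 had 11.9 CPM in Sp6 cKO, 66.8 CPM in Sp8 cKO, 34.4 CPM in Sp6+Sp8 cKO and 67.5 CPM in Wildtype. Krtap28-13 had 1.32, 15.8, 5.00 and 13.2 CPM in the same order, and its Sp6 cKO value was 0.100 of the Wildtype value (95% interval 0.0576 to 0.163). The pair gave the same picture as Krtap5, with Sp8 cKO at the Wildtype level.

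On chromosome 10 both members were lower. Krtap10-4 had 30.8 CPM in Sp6 cKO, 106 CPM in Sp8 cKO, 62.9 CPM in Sp6+Sp8 cKO and 83.4 CPM in Wildtype, and Krtap12-1 had 5.27, 28.1, 10.1 and 24.7 CPM. Their log2 ratios of Sp6 cKO to Wildtype were -1.43 and -2.20. Both subfamilies belong to the cuticle in human hair.

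Chromosome 11 was divided by position for description, at a boundary chosen after the values were seen. It lies at Krtap31-1, the first lower member by position, so the lack of lower members before it follows from this choice. The 17 members from Krtap3-3 to Krtap9-1 summed to 11221 CPM in Sp6 cKO and 8256 CPM in Wildtype, and none of them was lower past the size rule. The 6 members from Krtap31-1 (chr11:99907920-99908892) to Krtap17-1 (chr11:99993234-99993994) summed to 96.6 CPM in Sp6 cKO, 360 CPM in Sp8 cKO, 219 CPM in Sp6+Sp8 cKO and 357 CPM in Wildtype. Krtap16-1, the highest of the 6 per kilobase, had 58.1 CPM in Sp6 cKO, 268 CPM in Sp8 cKO, 146 CPM in Sp6+Sp8 cKO and 265 CPM in Wildtype. Its Sp6 cKO value was 0.219 of the Wildtype value (95% interval 0.203 to 0.237). Krtap29-1, Krtap17-1 and Krtap31-1 had log2 ratios of -2.08, -2.03 and -1.22. Krtap9-5, at -0.96, lay just outside the size rule, and Krtap31-2 stood at -0.63.

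On chromosome 16, where 23 of 25 members reached 1 CPM, Krtap24-1 and Krtap26-1 were the 2 lower ones. Krtap24-1, a cuticle gene in human hair, had 5.12 CPM in Sp6 cKO, 40.01 CPM in Sp8 cKO, 17.7 CPM in Sp6+Sp8 cKO and 40.8 CPM in Wildtype, which put Sp6 cKO at 0.126 of Wildtype (95% interval 0.0963 to 0.161). Krtap26-1 had 22.1 CPM in Sp6 cKO and 58.6 CPM in Wildtype, a log2 ratio of -1.40. Taken by subfamily, all 9 mouse members of the numbers named above for the human cuticle (5, 10, 12, 17 and 24, a grouping made after their values were seen) were lower past the size rule. They summed to 69.2 CPM in Sp6 cKO, 314 CPM in Sp8 cKO, 147 CPM in Sp6+Sp8 cKO and 294 CPM in Wildtype.

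**Figure D3:**
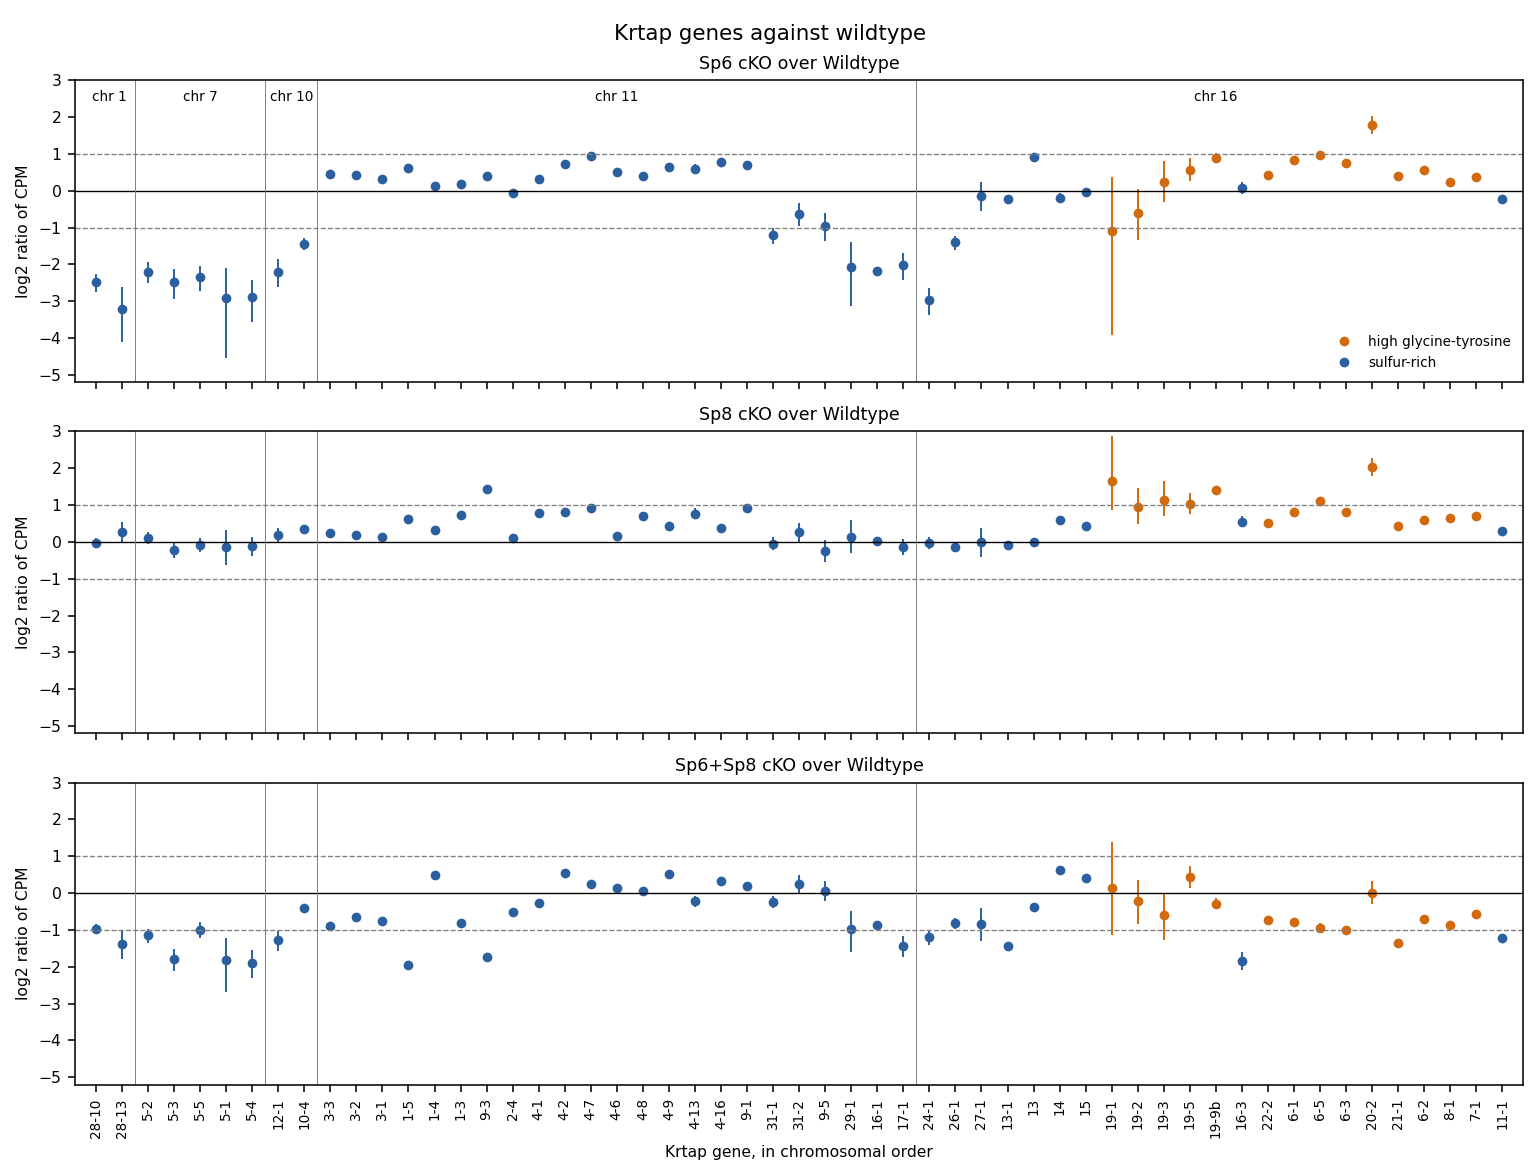
Points give the log2 ratio of CPM of each cKO library over Wildtype for the 55 members that reached 1 CPM in at least 1 of the 4 libraries, in chromosomal order. Vertical lines are exact 95% intervals of counting error, dashed lines the size rule of 1 and colours the class. In the Sp6 cKO panel chromosomes 1, 7 and 10 and the right end of chromosome 11 lie below 0 and mostly below -1, while the left of chromosome 11 and most of chromosome 16 lie near or above 0.

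Other genes of the cuticle and of the hair follicle were lower in the same library. Of 5 measured genes listed for cuticle and matrix, 3 were lower past the size rule in Sp6 cKO against Wildtype, 0 for Sp8 cKO and 1 for Sp6+Sp8 cKO. The shares of all measured genes were 2.16%, 1.55% and 2.95% in that order. Krt82, a cuticle keratin, had 7.44 CPM in Sp6 cKO, 38.6 CPM in Sp8 cKO, 18.8 CPM in Sp6+Sp8 cKO and 41.4 CPM in Wildtype. Krt32, another cuticle keratin, had 16.4, 52.6, 33.6 and 58.8 CPM, and S100a3, a calcium-binding protein of cuticle cells, had 119, 272, 175 and 240 CPM in that order. Krt84 and Krt35, at log2 ratios of 0.02 and -0.64 in Sp6 cKO, were not past the rule. The 15 lower Krtap members had 0.279 counts per count of this list in Sp6 cKO, 0.824 in Sp8 cKO, 0.470 for Sp6+Sp8 cKO and 0.835 in Wildtype. These members were chosen for being lower in Sp6 cKO than in Wildtype, so the contrast between those libraries follows in part from the choice. Krt84 alone held 5328 of the 8316 counts of the list in Sp6 cKO.

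Markers of the inner root sheath and medulla of hair follicles also moved, and their part in the Krtap result was not tested. The 11 listed genes summed to 1409 CPM in Sp6 cKO, 2148 CPM in Sp8 cKO, 1677 CPM in Sp6+Sp8 cKO and 2273 CPM in Wildtype, with 5, 0 and 3 lower past the size rule in the cKO libraries and none at 0 in any library. Krt72 and Tchhl1 had log2 ratios of -2.62 and -2.23 in Sp6 cKO, and the 3 with the highest counts, Tchh, Krt71 and Krt25, of -1.17, -0.43 and -0.30. Sebaceous gland genes (8 listed) summed to 4329, 4460, 5039 and 4364 CPM in the same library order, with 1, 1 and 2 lower. Genes of the basal and suprabasal epidermis summed to 21282, 17805, 16647 and 21639 CPM, and 0 of 7 were past the rule in any comparison. Dermis and bone genes summed to 14282, 13749, 11452 and 14361 CPM, and globin genes to 331, 678, 344 and 258 CPM. All 4 globin genes were higher in Sp8 cKO than in Wildtype past the size rule. In each other cKO library 1 of the 4 was higher, and none was lower in any. Of the 6 dermis and bone genes, 1 was higher in Sp8 cKO. In Sp6+Sp8 cKO 1 of these 6 was lower and 1 higher, and in Sp6 cKO 0 were past the rule. The part of the globin genes in the Krtap result was not tested.

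In Sp8 cKO against Wildtype the members past the size rule were all higher and mostly high glycine-tyrosine. Of 55 measured members 7 were higher past the size rule (12.7%), against 2.27% of all 16878 measured genes, and 0 were lower, against 1.55%. The 7 comprised 6 of 14 measured high glycine-tyrosine members and 1 of 41 sulfur-rich members. Krtap19-1, among the 6, reached 1 CPM in Sp8 cKO only, so it was measured through the library where it was high. With a fold of at least 1.5 in place of 2, 12 high glycine-tyrosine and 10 sulfur-rich members were higher. The share of all genes past that limit was not computed. The sum of each class was above Wildtype. All 14 high glycine-tyrosine members had positive log2 ratios, between 0.44 and 2.03 (median 0.89), and the median was 0.19 for sulfur-rich members and -0.01 for all genes.

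Krtap20-2, whose coding sequence is shown above, had 38.8 CPM in Sp8 cKO and 9.43 CPM in Wildtype, a ratio of 4.12 (95% interval 3.49 to 4.87). It had 32.6 CPM in Sp6 cKO and 9.49 CPM in Sp6+Sp8 cKO, so Sp6 cKO and Sp8 cKO were high and Sp6+Sp8 cKO and Wildtype low. Of the Krtap19 genes, Krtap19-9b had 116 CPM in Sp8 cKO and 43.8 CPM in Wildtype, and Krtap19-1, Krtap19-3 and Krtap19-5 had log2 ratios of 1.65, 1.14 and 1.04. Krtap19-1 was weak, at 2.30 CPM in Sp8 cKO and 0.64 CPM in Wildtype, with a wide interval of its ratio (1.83 to 7.32). The Krtap6 gene Krtap6-5 had 144 CPM in Sp8 cKO and 65.9 CPM in Wildtype. Krtap9-3 was the sulfur-rich member among the 7. It had 858 CPM in Sp8 cKO, 418 CPM in Sp6 cKO, 94.95 CPM in Sp6+Sp8 cKO and 316 CPM in Wildtype, so Sp8 cKO stood above the rest by a ratio to Wildtype of 2.71 (95% interval 2.63 to 2.80).

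The 15 members chosen for being lower in Sp6 cKO had log2 ratios between -0.21 and 0.35 in Sp8 cKO against Wildtype. Both comparisons use the same Wildtype library.

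In Sp6+Sp8 cKO against Wildtype the members past the size rule were all lower, and their split by class depended on the fold limit. Past the size rule, 14 of 54 members were lower (25.9%), against 2.95% of all 16861 measured genes, and 0 were higher, against 2.84%. The 14 comprised 13 of 41 sulfur-rich members and 1 of 13 measured high glycine-tyrosine members. With a fold of at least 1.5 in place of 2, 23 of 41 sulfur-rich and 7 of 13 high glycine-tyrosine members were lower. The share of all genes past that limit was not computed. The median log2 ratio was -0.74 over the members, -0.71 for high glycine-tyrosine and -0.80 for sulfur-rich, and -0.02 over all genes. Log2 ratios were negative for 40 of the 54.

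The lowest was Krtap1-5, which encodes a high-sulfur protein of the cortex in human hair. It had 213 CPM in Sp6+Sp8 cKO, 1276 CPM in Sp6 cKO, 1263 CPM in Sp8 cKO and 826 CPM in Wildtype, and the ratio of Sp6+Sp8 cKO to Wildtype was 0.258 (95% interval 0.248 to 0.267). Sp6+Sp8 cKO alone was low, and Sp6 cKO and Sp8 cKO were above Wildtype. Krtap9-3, 82.4% identical to Krtap1-5 in coding sequence, stood at 0.300 of Wildtype (95% interval 0.284 to 0.318). The other members of these subfamilies were not past the rule. Krtap1-3 and Krtap1-4 had log2 ratios of -0.80 and 0.50, and Krtap9-1 and Krtap9-5 of 0.20 and 0.05. The Krtap1 genes summed to 495 CPM in Sp6+Sp8 cKO and 1165 CPM in Wildtype, and the Krtap9 genes to 234 and 439 CPM. Krtap16-3, the sulfur-rich member by number with a high glycine-tyrosine sequence, had 10.7 CPM in Sp6+Sp8 cKO, 40.6 CPM in Sp6 cKO, 56.2 CPM in Sp8 cKO and 38.5 CPM in Wildtype. Krtap21-1, the high glycine-tyrosine member past the rule, had 138 CPM in Sp6+Sp8 cKO, 466 CPM in Sp6 cKO, 481 CPM in Sp8 cKO and 354 CPM in Wildtype. Krtap13-1 and Krtap11-1 had log2 ratios of -1.45 and -1.22. In Krtap1-5, Krtap9-3, Krtap16-3, Krtap21-1, Krtap13-1 and Krtap11-1 the Sp6+Sp8 cKO value lay below all 3 other libraries.

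Other members past the rule in this library belonged to the Krtap5 group and its like. Krtap5-4, Krtap5-1 and Krtap5-3 had log2 ratios of Sp6+Sp8 cKO to Wildtype of -1.89, -1.82 and -1.79, and Krtap17-1, Krtap28-13, Krtap12-1, Krtap24-1 and Krtap5-2 lay between -1.44 and -1.15. For these genes Sp6 cKO and not Sp6+Sp8 cKO had the lowest value of the 4 libraries.

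The 8 Krtap4 genes, cortex genes in human hair, were an exception among the abundant subfamilies. They summed to 2463 CPM in Sp6+Sp8 cKO, 3321 CPM in Sp6 cKO, 3477 CPM in Sp8 cKO and 2216 CPM in Wildtype, and their share of Krtap counts was 27.7% in Sp6+Sp8 cKO (95% Wilson interval 27.5 to 27.9), 19.7% for Sp6 cKO (19.5 to 19.9), 19.1% in Sp8 cKO (18.96 to 19.29) and 16.9% in Wildtype (16.74 to 17.02). Their log2 ratios of Sp6+Sp8 cKO to Wildtype lay between -0.26 and 0.55. The 3 Krtap3 genes, by contrast, summed to 2451 CPM in Sp6+Sp8 cKO and 4072 CPM in Wildtype, with log2 ratios from -0.88 to -0.66, none past the rule. The 4 Krtap6 genes summed to 427 CPM in Sp6+Sp8 cKO and 744 CPM in Wildtype, with log2 ratios from -0.998 to -0.71, also none past the rule. Krtap14 and Krtap15 stood at log2 ratios of 0.63 and 0.42. Their annotated spans overlap on opposite strands of chromosome 16, and no source states the strand setting of the counting. Their counts were whole in every library, but whether reads of either gene were counted for the other was not tested.

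**Figure D4:**
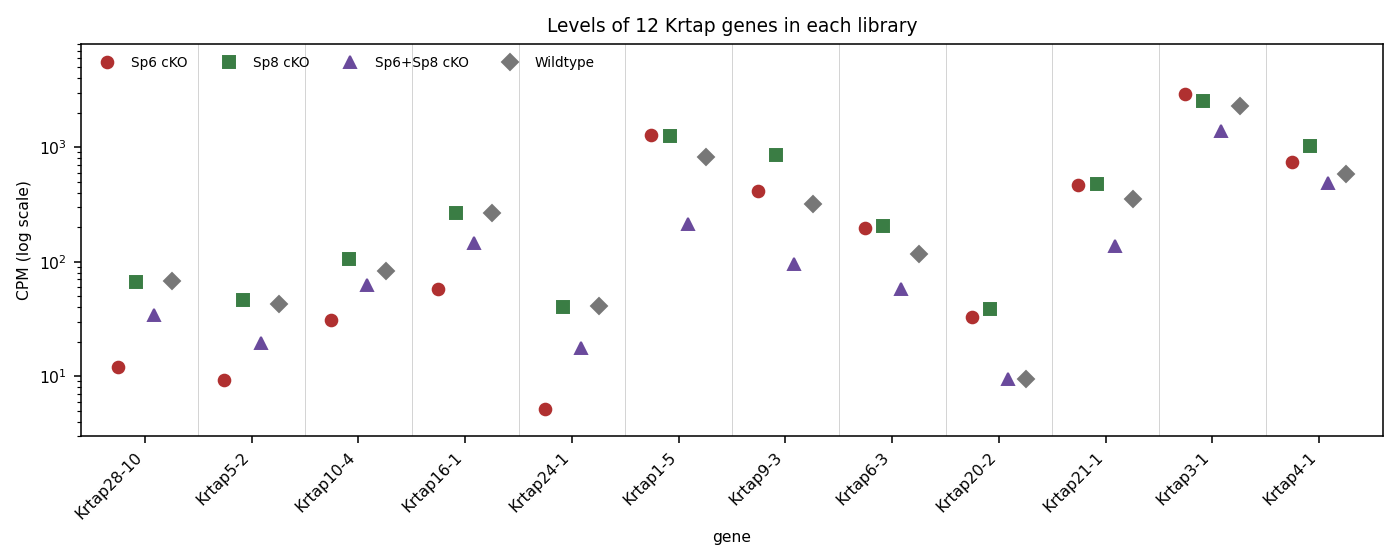
CPM (log scale) of 12 Krtap genes in the 4 libraries, 1 point per library. The 5 genes on the left have their lowest point in Sp6 cKO, Krtap1-5, Krtap9-3, Krtap6-3 and Krtap21-1 in Sp6+Sp8 cKO, and Krtap20-2 is high in Sp6 cKO and Sp8 cKO only.

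Within batch 1, Sp6+Sp8 cKO was lower than Sp8 cKO in most of the family, with negative log2 ratios for 51 of 55 members. Past the size rule, 30 of 55 members were lower (54.5%), against 2.80% of all 16889 measured genes, and 0 were higher, against 1.88%. The 30 comprised 13 of 14 high glycine-tyrosine members (median log2 ratio -1.57) and 17 of 41 sulfur-rich members (median -0.88). Krtap19-1, among the 13, was measured only through Sp8 cKO, where it was high. The log2 ratio of the high glycine-tyrosine class sum was below that of the sulfur-rich class by a difference of -0.53 (95% interval -0.55 to -0.50). Krtap9-3 led with a ratio of 0.111 (95% interval 0.105 to 0.117), followed by Krtap1-5, Krtap16-3, Krtap6-5 and Krtap20-2 at log2 ratios of -2.57, -2.38, -2.07 and -2.02. The 15 members chosen on the Sp6 cKO and Wildtype libraries, neither of which enters here, ran from -1.77 to -0.21, and their sum was 400 CPM in Sp6+Sp8 cKO and 760 CPM in Sp8 cKO.

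Sp6+Sp8 cKO differed from Sp6 cKO in both directions. Of 54 measured members 18 were lower (33.3%) and 9 higher (16.7%), against 2.08% lower and 1.89% higher of all 16848 measured genes. All 9 higher members were sulfur-rich, among them Krtap28-13, Krtap24-1 and Krtap28-10 at log2 ratios of 1.83, 1.76 and 1.52. Of 13 measured high glycine-tyrosine members 9 were lower and 0 higher, and of 41 sulfur-rich members 9 were lower and 9 higher. Krtap1-5 was the lowest, at 0.167 of the Sp6 cKO value (95% interval 0.161 to 0.173), and Krtap9-3, Krtap6-5, Krtap16-3, Krtap20-2 and Krtap6-3 had log2 ratios of -2.14, -1.91, -1.91, -1.77 and -1.76. Of the 55 members that reached 1 CPM, Sp6+Sp8 cKO had the lowest level for 24, Sp6 cKO for 21, Sp8 cKO for 0 and Wildtype for 10. The 10 include 6 Krtap4 genes, such as Krtap4-7 with 418 CPM in Sp6+Sp8 cKO, 678 CPM in Sp6 cKO, 671 CPM in Sp8 cKO and 354 CPM in Wildtype.

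In Sp6 cKO against Sp8 cKO, 18 of 55 measured members were lower (32.7%) and 0 higher, against 1.75% lower and 1.35% higher of all 16912 measured genes. This comparison shares the Sp6 cKO library with the one against Wildtype. Krtap28-13, Krtap24-1 and Krtap5-4 had 1.32, 5.12 and 2.25 CPM in Sp6 cKO, against 15.8, 40.01 and 16.04 CPM in Sp8 cKO. The Krtap5 sum had a log2 ratio of -2.39 and the family sum of -0.11. Krtap9-3 was also lower (log2 ratio -1.04), as was Krtap19-1 (-2.75), which was measured only through Sp8 cKO. Krtap19-1 had 0.23 CPM in Sp6 cKO, the value of 3 counts, and 2.30 CPM in Sp8 cKO, a ratio of 0.101 (95% interval 0.0197 to 0.326). Krtap13 stood on the other side at 630 CPM in Sp6 cKO and 334 CPM in Sp8 cKO, a log2 ratio of 0.91 that was not past the rule.

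Of 19 listed regulators of hair and nail differentiation 0 were past the size rule in any comparison with Wildtype. Of all measured genes 1.55% to 2.95% were past it per direction in these comparisons, so 0 of 19 says little about the regulators. Hoxc13, a homeobox factor that activates hair keratin and Krtap genes in mouse, had 46.8 CPM in Sp6 cKO, 57.6 CPM in Sp8 cKO, 39.7 CPM in Sp6+Sp8 cKO and 66.1 CPM in Wildtype, and its log2 ratios to Wildtype were -0.50, -0.20 and -0.73. Foxn1, a forkhead factor needed for the hair shaft and nail, stood at 171, 174, 118 and 162 CPM in that order. Hoxc13 and Foxn1 were lowest in Sp6+Sp8 cKO, but the list did not move together. Its median log2 ratio of Sp6+Sp8 cKO to Wildtype was -0.04. Sox21 (43.2 against 31.9 CPM) and Ovol1 (149 against 122 CPM) were higher in Sp6+Sp8 cKO than in Wildtype, though not past the rule. Of 9 genes for crosslinking and handling of the keratin matrix, 2 were lower in Sp6 cKO than in Wildtype, 0 for Sp8 cKO and 1 for Sp6+Sp8 cKO. The shares of all measured genes were 2.16%, 1.55% and 2.95% in that order. Crym, crystallin mu, had 4.73, 10.7, 4.94 and 10.1 CPM, and Padi1, a peptidylarginine deiminase, 7.91, 14.1, 10.7 and 16.4 CPM. The transglutaminase Tgm3 had 741, 523, 581 and 590 CPM and was not past the rule.

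Several values rest on reads that similar members share. The estimated counts of 31 members were not whole in at least 1 library, including 9 of the 15 lower in Sp6 cKO, and 8 members have a coding sequence at least 95% identical to another. The coding sequences of Krtap3-2 and Krtap3-3 are identical, those of Krtap31-1 and Krtap31-2 98.9%, Krtap6-1 and Krtap6-5 97.9% and Krtap4-1 and Krtap4-2 95.7% identical, so the division between the genes of each pair is uncertain. Krtap24-1, Krtap16-1, Krtap17-1, Krtap20-2, Krtap16-3 and Krtap21-1 had whole counts in every library.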

How the data were processed

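Whole digit tips were sequenced as poly-A, strand-specific libraries, 1 per genotype. The values are estimated counts per gene, deposited by the authors without scaling for depth, and per the submitters' processing notes the tools named are Salmon, STAR, Trim Galore 0.6.4, featureCounts, deepTools and edgeR, with build GRCm38. What each did, the annotation release and the strand setting are not stated. The table's remaining column of values, 1 that could not be tied to a sample, was left out.

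Counts were rounded, scaled with TMM factors (edgeR 4.0.16, R 4.3.3) over the 4 libraries and turned into CPM, with a prior count of 2 for log2 ratios of genes and none for sums. Totals of 12588511 to 21834883 set the precision. Ratios have exact Clopper-Pearson 95% intervals, and the class difference has the exact interval of the odds ratio. Shares of Krtap counts have Wilson intervals. Gene positions, lengths and coding sequences came from GENCODE M21 (GRCm38), where 98.8% of identifiers were found, and promoter windows from RefSeq (GRCm38.p6).

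The members, gene lists and size rule were chosen with earlier results of these data known. Named were up to 8 members per comparison by size of the log2 ratio, the 10 with the highest mean CPM per kilobase, the most abundant member of each subfamily, members beside the size rule and pairs of near-identical sequence, and up to 3 genes of each list. Other genes of the lists, and the other members of subfamilies 1 and 9, were named after their values were seen. Krt85, on the cuticle list, was not analysed here. Alternatives tried were DESeq2 1.42.0 size factors, library totals with and without keratin genes, unrounded counts, other filters, prior counts and fold limits, and sums without certain members.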

Additional observations from a re-analysis of the deposited data

How the results depend on the processing

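No paired analysis was possible because each genotype has 1 library and no replicate number joins libraries, and for the same reason no library could be left out. With a fold of at least 1.5 in place of 2, 13 members were higher in Sp6 cKO than in Wildtype, 22 higher in Sp8 cKO, 30 lower and 1 higher in Sp6+Sp8 cKO, 16 higher for Sp6+Sp8 cKO against Sp6 cKO, and 1 higher for Sp6 cKO against Sp8 cKO. The share of all genes past this fold was not computed, so these counts have no background to be read against. Every other count of members, under each alternative run, stayed within 1.5 times. The log2 ratio of the family sum kept its sign throughout. For Sp6 cKO over Wildtype it was 0.35 with library totals and 0.16 without members whose counts were not whole in at least 1 library. For Sp8 cKO over Wildtype it was 0.48 with totals that leave out keratin and Krtap genes, 0.53 without the most abundant member (Krtap3-1) and 0.54 without the members not whole. For Sp6+Sp8 cKO over Wildtype it was -0.55 with DESeq2 size factors, -0.53 with library totals, -0.55 with totals without keratin genes, -0.53 without the most abundant member and -0.64 without those not whole. For Sp6+Sp8 cKO over Sp6 cKO the same settings from library totals on gave -0.88, -0.91, -0.89 and -0.80. For Sp6+Sp8 cKO over Sp8 cKO, DESeq2 size factors gave -1.02, library totals -1.01, the sum without the most abundant member -1.06 and that without those not whole -1.18. For Sp6 cKO over Sp8 cKO, library totals gave -0.13, totals without keratin genes -0.12, the sum without the most abundant member -0.17 and that without those not whole -0.38.

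The class difference (high glycine-tyrosine minus sulfur-rich log2 ratio) without the most abundant member of each class was 0.25 for Sp6 cKO, 0.23 for Sp8 cKO and -0.41 for Sp6+Sp8 cKO over Wildtype, and -0.66 and -0.64 for Sp6+Sp8 cKO over Sp6 cKO and over Sp8 cKO. Without the members not whole it was 0.80 and 0.44 for Sp6 cKO and Sp8 cKO over Wildtype, and -1.01 and -0.65 for Sp6+Sp8 cKO over Sp6 cKO and over Sp8 cKO. For Sp6 cKO over Sp8 cKO it changed sign, from -0.14 with all members to 0.018 and 0.36 under these settings, so no class difference between these libraries is described above. For the sulfur-rich sum, leaving out the members not whole (for class sums a setting added after seeing the data) turned Sp6 cKO over Wildtype to -0.39 and left Sp6+Sp8 cKO over Sp6 cKO at -0.12, against -0.84 with all members. The cause was not tested. Counting Krtap16-3 as high glycine-tyrosine and leaving out the 8 near-identical members, alternatives chosen after seeing the data, moved no class difference beyond its counting error and no count by more than 1.5 times. Depth limits members with few counts, among them Krtap19-4, Krtap19-9a and Krtap19-1.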
